A study of Homo sapiens with 4 samples.

Results

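Transcripts of the histone deacetylase genes HDAC1 to HDAC9 and HDAC11 were examined in D458 cells, an established human medulloblastoma line with amplified MYC. The 10 genes were taken by symbol from a count table of 16839 gene rows, and all 10 passed the filter on low counts, as did 14546 rows in all. The knockdown cells carried a short hairpin RNA against SETD8 (shSETD8), which encodes the methyltransferase that adds a single methyl group to lysine 20 of histone H4. The control cells carried a hairpin with no target (shNull) and are labelled SETD8 wild type. Both groups had been transduced with viral particles and kept in puromycin at 1 µg/mL for 14 days. There were 2 poly(A) RNA libraries a group, made from separate clones, so the p-values below measure the spread between these clones. Where 1 library is left out, p-values measure only the spread of the group that keeps 2. Several hairpins against SETD8 were used, and the sources used here do not say which of them went into which clone.

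Histone deacetylases remove acetyl groups from lysines, on histones and on many other proteins, and the enzymes of classes I, II and IV need zinc to do so. Class I (HDAC1, HDAC2, HDAC3 and HDAC8) is mainly nuclear, and the first 3 of these work inside corepressor complexes that silence genes. Class IIa (HDAC4, HDAC5, HDAC7 and HDAC9) has little deacetylase activity of its own, moves between nucleus and cytoplasm under the control of kinases, and represses targets of MEF2 transcription factors. HDAC6, of class IIb, deacetylates tubulin in the cytoplasm, and HDAC11 is the class IV enzyme. In medulloblastoma, HDAC2 has been studied as a drug target in MYC-amplified cells, and high HDAC5 and HDAC9 expression has been linked to poor outcome.

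Because related genes can share reads, the sequences were compared first, in the GENCODE transcripts of these genes. No stretch of 50 bases, the length of the reads, was shared between any 2 of the 10 genes (0 shared stretches for each). The longest identical run in coding transcripts was 30 bases, found between HDAC4 (chromosome 2) and HDAC5 (chromosome 17) and between HDAC5 and HDAC7 (chromosome 12). These runs are shown because they bear on whether reads of relatives could be mixed up, with that of the partners HDAC1 (chromosome 1) and HDAC2 (chromosome 6), which was 17 bases.
HDAC1 and HDAC2: aagcagatgcagagatt
HDAC4 and HDAC5: ctgcagcaggagctcctggcgctcaagcag
HDAC5 and HDAC7: atccagagcatctggtcccggctgcaggag

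Overlap with genes outside the family was larger. Of the joined exons of HDAC7, 9.70% lay opposite the antisense transcript AC004466.1. Of those of HDAC3, 9.20% lay opposite AC008781.1, and of those of HDAC11, 6.25% lay opposite HDAC11-AS1. HDAC8 shared 5.19% of its joined exons with AL133500.1 on the same strand. The libraries kept strand, but the sources used here do not say whether the counting used it, and reads from those stretches cannot be assigned with certainty. HDAC9 and HDAC5 overlapped no annotated exon of another gene, and HDAC2 shared only 0.446% of its exons, with HDAC2-AS2.

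Total counts were 52627366 and 49064974 in the shSETD8 libraries and 44527591 and 40908334 in the shNull libraries. SETD8 itself was at 14.0 and 26.4 CPM (normalised read count, scaled to library size by the TMM method) in shSETD8 and at 38.9 and 41.6 CPM in shNull (a mean of 50.1% of shNull, edgeR adjusted p = 0.421, DESeq2 adjusted p = 0.0459), and the labels state 80% knockdown. The medulloblastoma markers summed to 6308 and 6319 CPM in shSETD8 and to between 6266 and 6624 CPM in shNull, with 7 of 8 in the table. Most of the sum was MYC and OTX2. OTX2 was lower in both shSETD8 libraries (2115 and 2185 CPM, against 2481 and 2318 CPM in shNull). NEUROD1 was lower in both too (302 and 418 CPM, against 500 and 444 CPM in shNull). GABRA5 was higher in both, and for the other markers the groups overlapped. Of 20 markers of other cell types, 15 were in the table and 9 of those stayed under 1 CPM in every library. The 4 epithelial markers, mostly KRT8 and KRT18, summed to 4.02 and 10.8 CPM in shSETD8 and to 0.272 and 0.409 CPM in shNull. EPCAM and CDH1 were under 1 CPM in every library. The 4 fibroblast markers summed to 32.0 and 39.5 CPM in shSETD8 and to 53.0 and 64.9 CPM in shNull. Among them DCN and LUM were lower in both shSETD8 libraries. COL1A1 was higher (3.81 and 4.81 CPM in shSETD8, 1.88 and 1.97 CPM in shNull), and COL1A2 was under 1 CPM in every library. The 3 astrocyte markers, nearly all SLC1A3, summed to 86.0 and 112 CPM in shSETD8 and to 97.9 and 109 CPM in shNull. The part of these markers in the values below was not tested. Over 11604 genes with a mean count of at least 100, the SD of the log2 difference between the 2 libraries was 0.51 within shSETD8 and 0.21 within shNull.

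Of the 10 genes, HDAC9 stood furthest apart between the groups and HDAC2 was next by p. HDAC9 mRNA was 1.97-fold higher in shSETD8, and HDAC2 mRNA was at 76.2% of its shNull level. DESeq2 called these 2 genes at an adjusted p under 0.05, 1 higher and 1 lower, where it called 1.94% of the genes it tested (0.928% higher and 1.02% lower). The edgeR likelihood ratio test called HDAC9 alone, where it called 1.7% of all genes. The main test, edgeR's quasi-likelihood F test with adjustment over all genes tested, called 0 of the 10, as it called 0% of all genes. At an unadjusted edgeR p under 0.05 there were 3, HDAC9 higher and HDAC2 and HDAC6 lower, where 10.8% of all genes passed (5.65% higher and 5.16% lower). The median log2 fold change of the 10 was -0.01, with 5 above and 5 below 0, beside 0.01 over all genes tested. The median size of the change, regardless of sign, was 0.23 for the 10 and 0.18 over all genes.

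**Figure D1:**
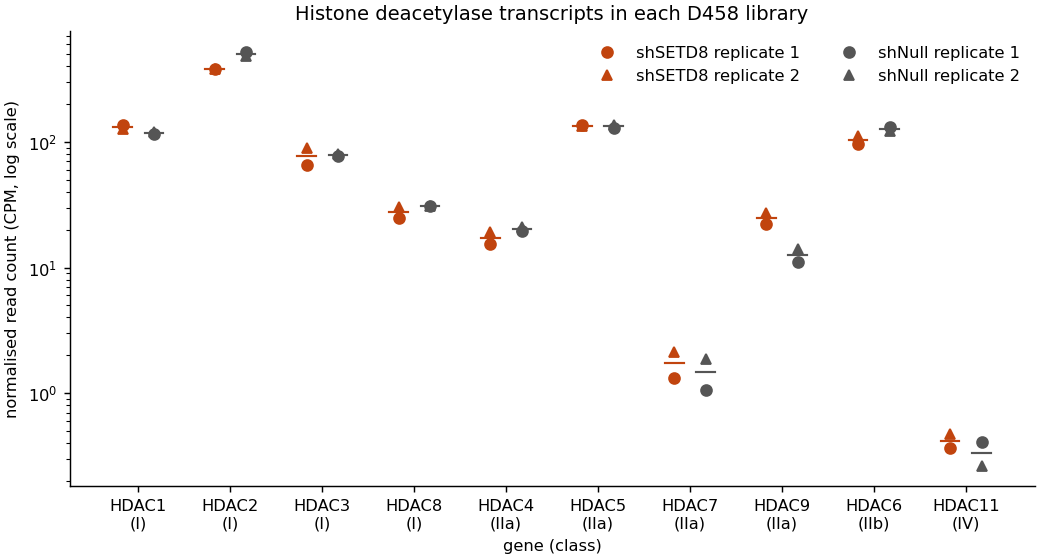
Normalised read count (CPM, log scale) of each gene in each library, shSETD8 left and shNull right of each tick; circles are replicate 1, triangles replicate 2 and bars the group mean. HDAC9 lay between 22.2 and 27.3 CPM in shSETD8 and between 11.1 and 14.0 CPM in shNull, while HDAC2 lay at 382 and 383 CPM in shSETD8 and at 484 to 521 CPM in shNull.

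HDAC9 (Entrez gene 9734, chromosome 7) encodes a class IIa protein, and its short isoform, which lacks the deacetylase domain, also binds MEF2. It was at 22.2 and 27.3 CPM in shSETD8 and 11.1 and 14.0 CPM in shNull. Both shSETD8 libraries were thus above both shNull libraries, and the higher library of each group exceeded the lower by 1.23-fold in shSETD8 and by 1.26-fold in shNull. The means were 24.7 ± 3.59 CPM in shSETD8 and 12.6 ± 2.04 CPM in shNull (SD, n = 2 each). The log2 fold change was 0.98 ± 0.19 (SE), with a 95% interval of 0.50 to 1.45. Its adjusted p was 0.362 by edgeR's quasi-likelihood test (unadjusted 0.00306), 0.0021 by DESeq2 and 0.00871 by edgeR's likelihood ratio test. Of all genes tested, 5.26% had a larger log2 fold change in either direction.

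With shSETD8 replicate 1 left out the log2 fold change of HDAC9 was 1.11, and with shSETD8 replicate 2 left out it was 0.82. Both edgeR and DESeq2 called HDAC9 in these fits, but a single shSETD8 library shows no spread and only the shNull pair gives it. In those fits edgeR called 7.95% and 15.9% of all genes and DESeq2 5.3% and 11.7%. With shNull replicate 1 or 2 left out the log2 fold change was 0.82 or 1.15, and neither edgeR nor DESeq2 called HDAC9. There only the shSETD8 pair gives the spread. In those fits edgeR called 0% of all genes and DESeq2 0.119% and 0.395%. GENCODE lists 11 basic coding transcripts of HDAC9, of 2.20 to 9.71 kb and with 8 different starts. The counts are per gene and do not show which isoforms made up the difference.

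The region around 1 of the HDAC9 starts is shown beside that of HDAC2, the other gene called by DESeq2. Both are from RefSeq on GRCh38.p14 and run from 250 bases before to 50 bases after the start. The HDAC9 region is chr7:18495499-18495798 on the plus strand and the HDAC2 region is chr6:113971099-113971398 on the minus strand. Capitals mark CCAAT and the letters TGANTCA, where N is any base, read on both strands.
HDAC9: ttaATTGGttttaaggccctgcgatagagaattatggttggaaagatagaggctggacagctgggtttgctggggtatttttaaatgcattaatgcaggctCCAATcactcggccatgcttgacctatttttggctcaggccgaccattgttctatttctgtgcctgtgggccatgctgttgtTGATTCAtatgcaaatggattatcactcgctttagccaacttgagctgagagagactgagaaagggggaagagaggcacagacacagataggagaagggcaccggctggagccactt
HDAC2: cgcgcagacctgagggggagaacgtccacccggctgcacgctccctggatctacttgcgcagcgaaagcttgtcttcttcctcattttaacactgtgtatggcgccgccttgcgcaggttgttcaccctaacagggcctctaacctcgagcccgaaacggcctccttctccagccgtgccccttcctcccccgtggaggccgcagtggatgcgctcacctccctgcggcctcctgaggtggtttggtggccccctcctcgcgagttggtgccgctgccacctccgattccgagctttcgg
The HDAC9 region held CCAAT, in either orientation, 2 times and TGANTCA 1 time, starting 67 bases before the annotated start. Of 35116 promoters of the same length, 34.6% held CCAAT and 7.71% held TGANTCA, on either strand. The E-box CACGTG, the GC box GGGCGG, the CRE TGACGTCA and the TATA box TATAAA were also searched on both strands, and the HDAC2 region held none of the 6. Of all promoters, 7.26% held the E-box, 45.0% the GC box, 1.85% the CRE and 11.5% the TATA box. The HDAC9 region had a GC content of 47.3% with 5 CpG sites, and the HDAC2 region one of 64.0% with 24, where the median promoter had 58.7% and 14. Of the 10 genes, 9 had an entry, and HDAC5 did not. These matches are descriptions of letters and say nothing of binding in D458 cells.

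HDAC2 (Entrez gene 3066, chromosome 6) encodes a class I enzyme found with HDAC1 in the SIN3, NuRD and CoREST complexes. It was at 382 and 383 CPM in shSETD8 and 521 and 484 CPM in shNull. Both shSETD8 libraries were lower, and they differed from each other by 1.00-fold where the shNull libraries differed by 1.08-fold. The means were 383 ± 0.737 CPM in shSETD8 and 502 ± 25.8 CPM in shNull (SD, n = 2 each). The log2 fold change was -0.39 ± 0.09 (SE), with a 95% interval of -0.62 to -0.17 and an edgeR adjusted p of 0.365 (unadjusted 0.00606). DESeq2 called it (adjusted p = 0.0327), and edgeR's likelihood ratio test did not (adjusted p = 0.08). Without shNull replicate 1 or 2 the log2 fold change was -0.34 or -0.45, and without either shSETD8 library it was -0.39. As for HDAC9, DESeq2 called HDAC2 without either shSETD8 library and not without either shNull library. In such fits only the group that keeps 2 libraries gives the spread. Of all genes tested, 21.5% had a larger log2 fold change in either direction. In bulk RNA, fewer cells that express a gene and less of its RNA per cell cannot be told apart.

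HDAC1 (Entrez gene 3065), the close relative and partner of HDAC2, lay in the opposite direction by a smaller amount. It was at 137 and 127 CPM in shSETD8 and 116 and 120 CPM in shNull. The groups did not overlap, but the log2 fold change of 0.16 ± 0.09 (SE) had a 95% interval of -0.07 to 0.40 and an edgeR adjusted p of 0.545. HDAC3 (Entrez gene 8841), the catalytic subunit of the NCoR and SMRT complexes, was at 65.5 and 90.1 CPM in shSETD8 and 77.6 and 79.8 CPM in shNull. The shSETD8 libraries lay on either side of both shNull libraries. Its log2 fold change was -0.02 ± 0.17 (SE), and it was 0.19 without shSETD8 replicate 1 and -0.26 without shSETD8 replicate 2. HDAC8 (Entrez gene 55869, chromosome X) deacetylates the cohesin subunit SMC3. It was at 24.9 and 30.5 CPM in shSETD8 and 30.8 and 30.7 CPM in shNull. Only shSETD8 replicate 1 stood apart, and without it the log2 fold change was -0.01, where all 4 libraries gave -0.15 ± 0.14 (SE; edgeR adjusted p = 0.716).

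The other class IIa genes had smaller differences than HDAC9 and overlapping or close groups. HDAC5 (Entrez gene 10014), which is held in the cytoplasm when kinases phosphorylate it, was at 135 and 133 CPM in shSETD8 and 130 and 137 CPM in shNull. The groups overlapped, and the 95% interval of its log2 fold change was -0.21 to 0.23. HDAC4 (Entrez gene 9759), a repressor best known from cartilage and muscle, was at 15.4 and 19.3 CPM in shSETD8 and 19.7 and 21.1 CPM in shNull. Both shSETD8 libraries were lower, replicate 2 by little, and the log2 fold change was -0.23 ± 0.16 (SE; edgeR adjusted p = 0.616). It was -0.08 without shSETD8 replicate 1 and -0.40 without shSETD8 replicate 2. HDAC7 (Entrez gene 51564), known from blood vessels and lymphocytes, had only 69 and 104 counts in shSETD8 and 47 and 78 counts in shNull. Its libraries interleaved, and the 95% interval of the log2 fold change ran from -0.87 to 1.33. HDAC9 was the only one of these 4 genes that DESeq2 called, and whether its change differed from those of the other class IIa genes was not tested.

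HDAC6 (Entrez gene 10013, chromosome X) acts on tubulin and, through a ubiquitin-binding domain, on the handling of misfolded protein. It was at 96.5 and 110 CPM in shSETD8 and 132 and 122 CPM in shNull. Both shSETD8 libraries were lower, at a mean of 81.2% of shNull. The log2 fold change was -0.30 ± 0.11 (SE) with a 95% interval of -0.58 to -0.02, an unadjusted edgeR p of 0.0387 and an adjusted p of 0.454, with a DESeq2 adjusted p of 0.402. Without shSETD8 replicate 2 the log2 fold change was -0.40, and without shSETD8 replicate 1 it was -0.21. HDAC11 (Entrez gene 79885), which removes long fatty acyl groups as well, was close to absent, with 19 and 23 counts in shSETD8 and 18 and 11 counts in shNull. At that depth a log2 change anywhere from -0.84 to 1.44 lay inside its 95% interval.

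**Figure D2:**
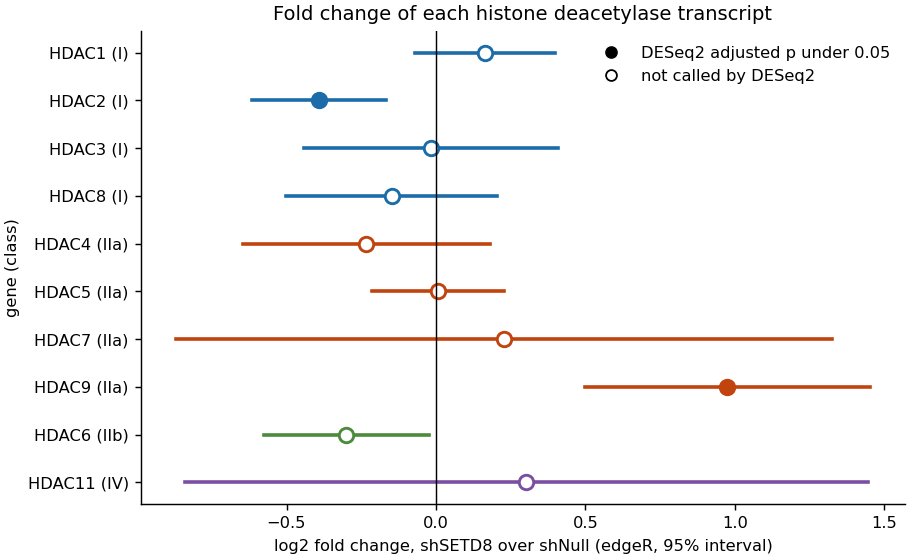
Log2 fold change, shSETD8 over shNull, of each gene by edgeR, with the 95% interval as a line; filled points have a DESeq2 adjusted p under 0.05, and colours mark the class. HDAC9 at 0.98 and HDAC2 at -0.39 are filled, HDAC5 lies at 0.01, and HDAC7 and HDAC11 have the widest intervals.

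Groups did not overlap for 6 of the 10 genes, 2 higher (HDAC1 and HDAC9) and 4 lower (HDAC2, HDAC4, HDAC6 and HDAC8) in shSETD8. The same held for 45.3% of all genes tested, 22.9% higher and 22.4% lower, so that the share in the family is near the background. Set against the shNull mean, shSETD8 replicate 1 was higher for 4 genes and lower for 6, and shSETD8 replicate 2 was higher for 5 and lower for 5. HDAC1, HDAC9 and HDAC11 were above that mean in both shSETD8 libraries.

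**Figure D3:**
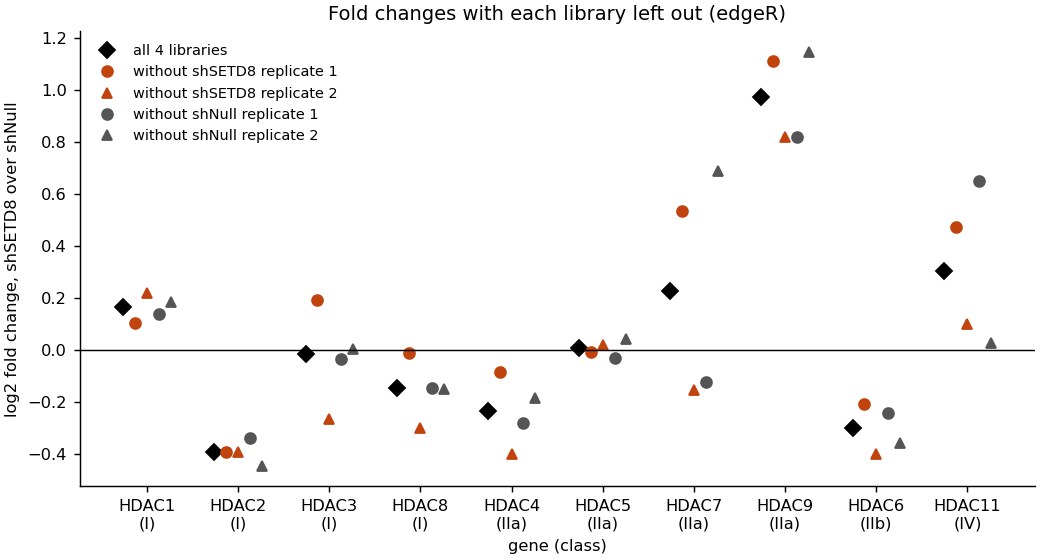
Log2 fold change of each gene by edgeR with all 4 libraries (diamonds) and with 1 library left out (circles for replicate 1, triangles for replicate 2, coloured by group). HDAC9 stays between 0.82 and 1.15 and HDAC2 between -0.45 and -0.34, while HDAC3, HDAC5 and HDAC7 lie on both sides of 0.

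To compare levels between the genes, CPM were divided by the median length of each gene's GENCODE basic coding transcripts. On this scale of CPM per kilobase, HDAC2 was highest in every library, at 183 and 184 in shSETD8 and at 249.8 and 232 in shNull. HDAC1 followed, at 64.6 and 59.7 in shSETD8 and at 54.6 and 56.5 in shNull. The level of HDAC2 was thus 2.84 and 3.08 times that of HDAC1 in shSETD8, against 4.58 and 4.11 times in shNull. HDAC3 and HDAC6 came next and were not separated, since HDAC3 spanned 33.4 to 46.0 and HDAC6 32.2 to 44.2 over the 4 libraries. HDAC3 was above HDAC6 in both shSETD8 libraries and below it in both shNull libraries. HDAC5 (25.8 to 27.3), HDAC8 (14.3 to 17.6), HDAC9 (3.47 to 8.50) and HDAC4 (1.72 to 2.35) followed in that order with no overlap of neighbours on this scale. HDAC7 (0.326 to 0.653) and HDAC11 (0.205 to 0.366) were lowest and overlapped. HDAC9 was at 4.03 and 3.97 times the level of HDAC4 in shSETD8, against 1.59 and 1.86 times in shNull, with the median transcript as length.

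Much of this order depends on the length used. HDAC2 has 3 basic coding transcripts, the longest of 9.87 kb, and all its annotated exons joined make 15.5 kb, against 3.96 kb for HDAC1. Divided by joined exons, HDAC1 was above HDAC2 in shSETD8, at 34.6 and 32.0 CPM per kilobase for HDAC1 and 24.7 and 24.8 for HDAC2. In shNull HDAC1 was below HDAC2 on that scale, at 29.2 and 30.3 for HDAC1 and 33.7 and 31.3 for HDAC2. HDAC5 (17.1 to 18.0) then overlapped HDAC3 (14.1 to 19.5), and HDAC3 was above HDAC6 (9.10 to 12.5) in every library. HDAC8 (1.09 to 1.34), HDAC4 (1.15 to 1.58) and HDAC9 (0.662 to 1.62) overlapped one another. The level of HDAC9 was 1.14 and 1.13 times that of HDAC4 in shSETD8 and 0.450 and 0.528 times in shNull, so HDAC9 was below HDAC4 in shNull on this scale. The HDAC9 to HDAC4 ratio was higher, and the HDAC2 to HDAC1 ratio lower, in both shSETD8 libraries than in both shNull libraries. Each gene was divided by the same annotated length in every library, so the choice of annotated length cannot change this order. The fold changes between groups do not depend on that choice either. The counts are per gene, and whether the mix of isoforms, and with it the expressed length, differed between groups was not tested.

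Sums and shares here are over the 10 genes alone, with HDAC6 as the single gene of class IIb; any further member of the family is not analysed here. Summed over the 10 genes, CPM were 881 and 924 in shSETD8, against 1039.6 and 1012 in shNull. By CPM per kilobase of median transcript, class I made up 81.2% and 80.4% of the summed level in shSETD8 and 82.6% and 82.1% in shNull. Class IIa made up 9.86% and 9.87% in shSETD8 and 7.27% and 8.17% in shNull. HDAC6 made up 8.85% and 9.66% in shSETD8 and 10.1% and 9.68% in shNull, and HDAC11 at most 0.0957% in shSETD8 and 0.0723% in shNull. The share of HDAC2 alone was 50.4% and 48.1% in shSETD8 and 57.0% and 55.0% in shNull, or 23.7% and 22.8% in shSETD8 and 29.8% and 27.9% in shNull with joined exons. With joined exons class IIa made up 19.6% and 19.1% in shSETD8 and 17.1% and 18.4% in shNull, so its shares were again higher in both shSETD8 libraries. HDAC9 was the only class IIa gene higher in both shSETD8 libraries than in both shNull libraries. Shares also depend on the total. By median transcript it was 364 and 382 CPM per kilobase in shSETD8 and 438 and 423 in shNull. Class I shares, lower in both shSETD8 libraries with the median transcript, overlapped between the groups with joined exons.

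**Figure D4:**
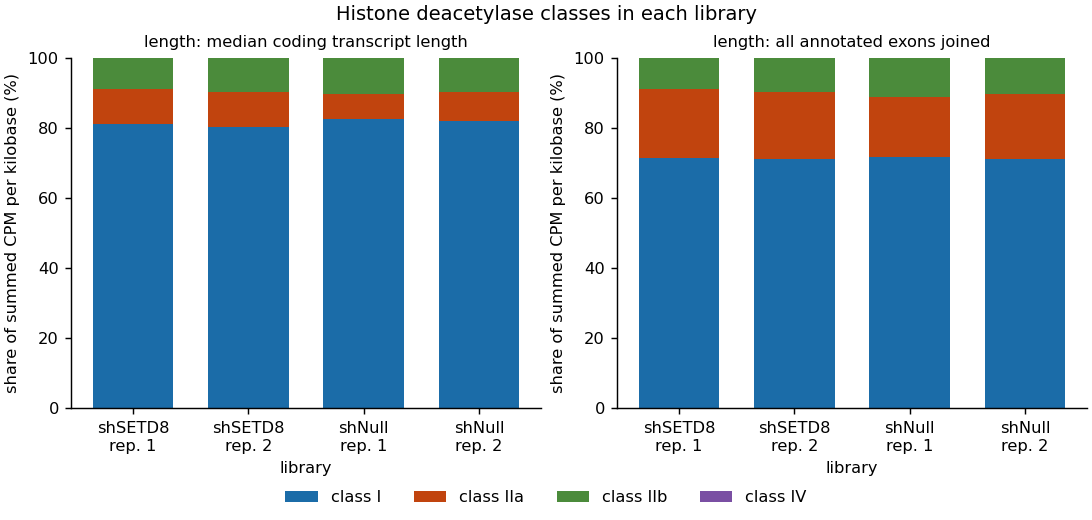
Share of each class in the summed CPM per kilobase of the 10 genes (HDAC6 alone for class IIb), 1 bar a library, with lengths from the median coding transcript (left) and from all annotated exons joined (right). Class I takes 80.4% to 82.6% on the left and 71.3% to 71.8% on the right; class IV, under 0.1%, is too thin to see.

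Genes that act with these enzymes were read from 7 lists, and edgeR called 0 members of any of them. Among 38 subunits of the SIN3, NuRD and CoREST complexes and related partners of HDAC1 and HDAC2, the median log2 fold change was -0.07, with 14 above and 24 below 0. The groups did not overlap for 9 higher and 7 lower members, a share close to the 22.9% higher and 22.4% lower among all genes. MIER3, a scaffold that recruits HDAC1 and HDAC2, was the 1 DESeq2 call of the 38, where DESeq2 called 1.94% of the genes it tested. It was at 27.5 and 26.6 CPM in shSETD8 and 42.7 and 37.3 CPM in shNull (log2 fold change -0.57 ± 0.12 (SE), DESeq2 adjusted p = 0.0297). That call was lost by the likelihood ratio test (adjusted p = 0.0706) and by DESeq2 without either shNull library (adjusted p = 1.00 each). The zinc finger protein ZMYM2, found in CoREST complexes, was at 149 and 151 CPM in shSETD8 and 180.3 and 197 CPM in shNull. CHD5, the neuronal NuRD helicase, was at 4.41 and 2.03 CPM in shSETD8 and 0.770 and 1.11 CPM in shNull, with a log2 fold change of 1.78 ± 0.48 (SE) that DESeq2 did not call (adjusted p = 0.0877). It was 1.11 without shSETD8 replicate 1 and 2.23 without shSETD8 replicate 2.

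Of 8 tested partners of HDAC3 in the NCoR and SMRT complexes, 3 lay above and 5 below 0, and their median log2 fold change was -0.02. ZBTB33, also called Kaiso, which brings NCoR to methylated DNA, was the 1 DESeq2 call, where DESeq2 called 1.94% of the genes it tested. It was at 77.7 and 85.2 CPM in shSETD8 and at 109.5 and 111 CPM in shNull (log2 fold change -0.43 ± 0.09 (SE), DESeq2 adjusted p = 0.0386). That call was lost by the likelihood ratio test (adjusted p = 0.0814) and by DESeq2 without shSETD8 replicate 1 (adjusted p = 0.0656) or either shNull library (adjusted p = 1.00 each). TBL1XR1, an exchange factor of the complexes, was at 120.0 and 125 CPM in shSETD8 and at 129.7 and 149 CPM in shNull, and GPS2, another subunit, was at 0.381 and 0.348 CPM in shSETD8 and at 0.227 and 0.216 CPM in shNull.

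Among 27 tested MEF2 factors, 14-3-3 proteins, kinases and other partners of class IIa, 13 lay above and 14 below 0, their median log2 fold change was -0.01, and DESeq2 called 0 (3 had an unadjusted edgeR p under 0.05, where 10.8% of all genes did). These were kinases of families that phosphorylate class IIa enzymes. PRKD3 was at 110 and 109 CPM in shSETD8 and 132 and 139 CPM in shNull. PRKD2 was at 42.0 and 41.9 CPM in shSETD8 and 32.5 and 35.4 CPM in shNull, and MARK3 at 94.3 and 78.6 CPM in shSETD8 and 67.1 and 69.9 CPM in shNull. Groups did not overlap for 9 higher and 7 lower members of this list, where 45.3% of all genes did not, and these kinases, named for their low p, are among them.

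Partners and substrates of HDAC6 and HDAC8 numbered 17, of which 10 lay above and 7 below 0 (median log2 fold change 0.01). HSP90AA1, the inducible form of the chaperone HSP90 and a substrate of HDAC6, was the 1 DESeq2 call, where 1.94% of all genes were called. It was at 3778 and 3745 CPM in shSETD8 and at 2720.0 and 2699 CPM in shNull (log2 fold change 0.47 ± 0.09 (SE), DESeq2 adjusted p = 0.000646). The likelihood ratio test called it too (adjusted p = 0.00512), and DESeq2 did not without either shNull library (adjusted p = 1.00 each). VCP, the ATPase that binds HDAC6, was at 671 and 532 CPM in shSETD8 and 438 and 465 CPM in shNull. ATAT1, the acetyltransferase that works against HDAC6 on tubulin, was at 31.1 and 29.3 CPM in shSETD8 and 40.7 and 35.3 CPM in shNull, the same direction as HDAC6. Neither was called by DESeq2 (adjusted p = 0.189 and 0.444).

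The 7 sirtuins, the deacetylases that use NAD in place of zinc, numbered 5 above and 2 below 0 (median log2 fold change 0.05), with 0 DESeq2 calls (1 unadjusted edgeR p under 0.05, where 10.8% of all genes had one). SIRT3, the main mitochondrial deacetylase, was at 14.9 and 18.9 CPM in shSETD8 and 11.8 and 12.4 CPM in shNull. SIRT4, also mitochondrial, was at 1.56 and 1.76 CPM in shSETD8 and 1.06 and 1.15 CPM in shNull, and nucleolar SIRT7 at 16.9 and 12.9 CPM in shSETD8 and 11.7 and 12.4 CPM in shNull. These are the 3 sirtuins, named for their low p, whose groups did not overlap, all higher in shSETD8, where 22.9% of all genes were.

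The list of acetyltransferases, the enzymes that add acetyl groups, held 19 genes, 10 above and 9 below 0 (median log2 fold change 0.01). It includes the N-alpha-acetyltransferases NAA10 and NAA50, both above 0 (0.08 and 0.15). The list had 0 DESeq2 calls (3 unadjusted edgeR p under 0.05, where 10.8% of all genes had one). EP300, the coactivator p300, was at 135 and 119 CPM in shSETD8 and at 164 and 179 CPM in shNull (log2 fold change -0.43 ± 0.11 (SE), DESeq2 adjusted p = 0.081). TAF1, a subunit of the general factor TFIID, was at 61.2 and 64.5 CPM in shSETD8 and 74.0 and 76.9 CPM in shNull. KAT7, which acetylates histones H3 and H4, was at 106 and 93.8 CPM in shSETD8 and 85.2 and 78.3 CPM in shNull.

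The 23 tested genes of the bromodomain list, whose products bind acetylated lysines, lay mostly on one side. Their median log2 fold change was -0.18, beside 0.01 over all genes tested, with 2 above and 21 below 0. The groups did not overlap for 14, all lower in shSETD8, where 22.4% of all genes were. The changes were small, from -0.44 to 0.04. PHIP was the 1 DESeq2 call of the 23, where DESeq2 called 1.94% of the genes it tested. It was at 103 and 103 CPM in shSETD8 and 132 and 148 CPM in shNull (log2 fold change -0.44 ± 0.10 (SE), DESeq2 adjusted p = 0.0377). That call was lost by the likelihood ratio test (adjusted p = 0.0688) and by DESeq2 without either shNull library (adjusted p = 1.00 each). ATAD2, a coactivator of MYC and E2F targets, was at 113 and 113 CPM in shSETD8 and 129.8 and 135 CPM in shNull, and its relative ATAD2B at 27.9 and 28.7 CPM in shSETD8 and 33.5 and 35.0 CPM in shNull. Against the shNull mean, the median of the list was -0.15 in shSETD8 replicate 1 and -0.17 in shSETD8 replicate 2. No set test was run, so the direction of the list is a description. EP300, CREBBP, KAT2A, KAT2B and TAF1 also hold bromodomains but were counted with the acetyltransferases. Their log2 fold changes were -0.43, -0.19, 0.11, -0.03 and -0.26.

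**Figure D5:**
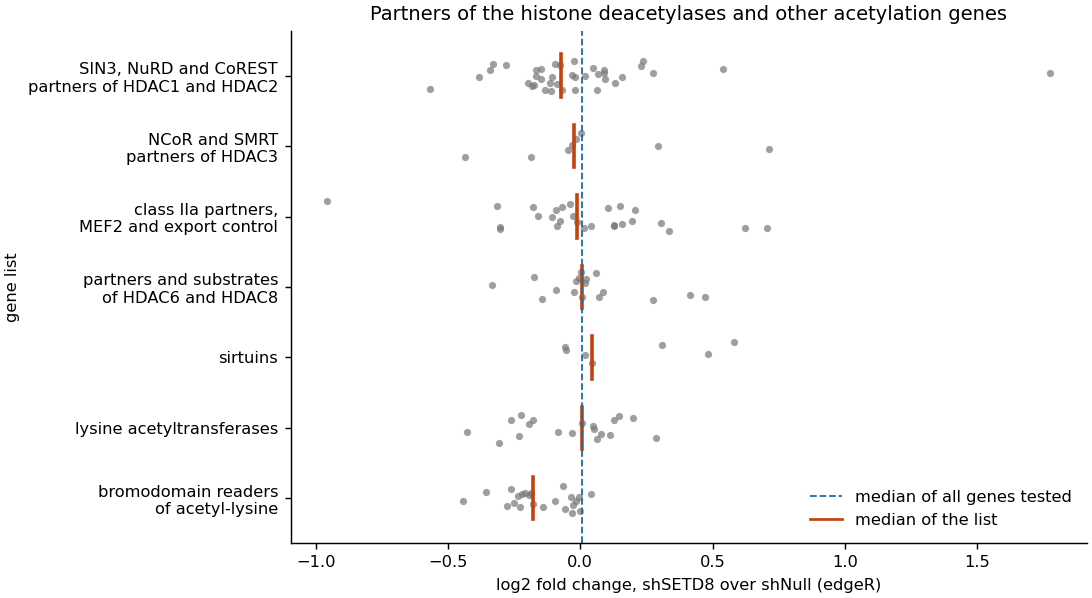
Log2 fold change by edgeR, shSETD8 over shNull, of every tested gene in 7 lists (grey points, spread vertically at random for view), with the list's median (orange) and the median of all genes tested (dashed). The bromodomain genes have the lowest median of the lists, -0.18, and the point at the far right of the first list is CHD5 at 1.78.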

How the data were processed

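RNA of 4 D458 libraries was sequenced as single reads of 50 bases. The deposited table gave raw counts, 1 whole number for each gene and library. Per the submitters' processing notes the authors worked on build hg19 with STAR 2.4.0.1, Trimmomatic 0.36, DESeq 1.32.0 and FastQC 0.10.1; the sources used here name no counting program. Another 2 columns of counts matched no sample and were not used. Groups follow the treatment label; replicate numbers follow the order of records and pair nothing.

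The main test was edgeR 4.0.16 (R 4.3.3): TMM, filterByExpr (14546 genes kept, 2293 removed), quasi-likelihood F tests, and Benjamini-Hochberg adjustment over all genes tested with a threshold of 0.05. SE was computed from the fold change and its F value, and 95% intervals use the fit's degrees of freedom. Alternatives were DESeq2 1.42.0, the edgeR likelihood ratio test, limma-voom (limma 3.58.1), DESeq2 size factors, no filter and each library left out. Of 65 rows with no symbol or a date as symbol, 23 were renamed from the reference gene table, and all 65 went through the same filter as other genes. Mean chi-square per gene was 86.7 between the shSETD8 libraries and 19.6 between the shNull libraries, so neither pair differed by as little as sampling noise. Transcript lengths, overlaps and shared stretches come from GENCODE on GRCh38, not the build of the counts. The steps were tested on simulated counts.

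Of each list the text names up to 3 members of lowest edgeR p and any other DESeq2 call. The members and lists were chosen with earlier results of these data known.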

Additional observations from a re-analysis of the deposited data

How the results depend on the processing

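DESeq2 called 283 genes, 2 of them among the 10 HDAC genes and 1 in each of 4 lists (SIN3, NuRD and CoREST partners; NCoR and SMRT partners; HDAC6 and HDAC8 partners; bromodomain genes), where edgeR's quasi-likelihood test called 0. The likelihood ratio test called 247, with 1 HDAC gene and 1 gene in the HDAC6 and HDAC8 list. DESeq2 size factors in edgeR, no filter and limma-voom called 0. With 1 library left out, over edgeR and DESeq2, calls ran from 0 to 2319 over all genes, from 0 to 3 among the HDAC genes, from 0 to 11 in the SIN3, NuRD and CoREST list, from 0 to 1 in the NCoR and SMRT list and the sirtuins, from 0 to 2 in the acetyltransferases, and from 0 to 3 in each of the other lists; a single remaining library takes the spread of the other pair. The fits with many calls were those without an shSETD8 library, and the cause was not tested. The SIN3, NuRD and CoREST list held 38 tested genes, and the shares of all genes called in these fits are given with HDAC9 above. A single shSETD8 library shows no spread, so no conclusion is drawn from the list counts in these fits. Without an shNull library edgeR called 0. DESeq2 called 754 and 1548 genes without shSETD8 replicate 1 and 2 (7 of them SIN3, NuRD and CoREST partners in the second case) and 20 and 51 without shNull replicate 1 and 2. Log2 fold changes that changed sign did so only with a library left out: by edgeR HDAC3 ran from -0.26 to 0.19, HDAC5 from -0.032 to 0.043 and HDAC7 from -0.16 to 0.69. By DESeq2 HDAC3 was 0.19 and 0.0052 without shSETD8 replicate 1 and shNull replicate 2, HDAC5 -0.011 and -0.033 without replicate 1 of either group, and HDAC7 -0.16 and -0.12 without shSETD8 replicate 2 and shNull replicate 1. With joined exons as length, class I had 71.4% in shSETD8 and 71.5% in shNull, class IIa 19.3% and 17.7%, and class IIb 10.7% in shNull. No paired analysis was possible because the labels give no number that links an shSETD8 library to an shNull library. Among the 10 genes, depth limits HDAC7 and HDAC11, with 104 counts or fewer in every library. GPS2 and SIRT4, named from the lists, had at most 20 and 86 counts.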
